A study of Mus musculus with 16 samples.

Results

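Serpins are protease inhibitors that trap their target by offering it an exposed loop, the reactive centre loop, as bait. The residues of that loop decide which protease is inhibited. The mouse carries an expanded set of clade A serpins on chromosome 12, where copies of the genes that in humans encode α1-antichymotrypsin and α1-antitrypsin have diversified mainly in this loop. Most clade A serpins are made by the liver and rise in the acute phase response, while some Serpina3 genes are also induced by inflammatory cytokines outside the liver, for example in astrocytes and leukocytes. The 9 genes described here are Serpina3n, Serpina3g, Serpina3f, Serpina3h, Serpina3k, Serpina3m, Serpina1e, Serpina11 and Serpina12. They were picked by name from the 24946 genes of the tables, and all 9 have a row in them. Serpina11, Serpina3k and Serpina12 are listed at 0 in some libraries. The choice was made with values of these libraries known, and 7 of the 9 pass the threshold between Clever-1 KO and WT at steady state, so the differences between KO and WT are given as a description with no test. The changes after injection were known as well, so their p-values are not independent of the choice of genes.

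Lymphatic endothelial cells (LECs) were sorted as live CD45-, CD31+ and podoplanin+ cells from popliteal and brachial lymph nodes (LNs), and their RNA was sequenced. There were 4 groups of 4 libraries. KO inflamed and WT inflamed LECs came from Clever-1 KO mice, which lack Stab1, and from WT controls 1 day after a footpad injection of ovalbumin (OVA) in Freund's adjuvant, which the sample labels call complete and the study's methods incomplete. KO steady state and WT steady state LECs came from mice of the same genotypes without injection. Each library pooled 2 mice by the study's legend, and mice of both sexes aged 6 to 12 weeks were used. For strain, the sample labels name C57BL/6, whereas the methods describe mice of mixed C57BL/6N and 129SvJ origin. The tables hold no sequence variants, so which strain each library's chromosome 12 came from was not tested. Levels are in TPM, a share of each library's transcripts that is corrected for transcript length, so they can be set side by side between genes. Library depth cannot be read from TPM and is unknown, so precision rests on the spread of the 4 libraries of a group.

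Stab1 stood at 5.09 to 8.90 TPM in the 8 KO libraries, against 193 to 640 TPM in the 8 WT libraries. Of 8 lymphatic markers, Prox1, Pdpn, Flt4, Lyve1, Pecam1, Reln and Mmrn1 were above 1 TPM in all 16 libraries. Ccl21a was listed at 0 in all of them, as was the hepatocyte marker Alb. The library of WT inflamed replicate 2 stood apart. Its mean correlation with the rest of its group was 0.879, against 0.934 to 0.939 for the other WT inflamed libraries and 0.958 to 0.976 in the other groups. The lymphatic markers above 1 TPM were also lowest in it within the WT inflamed group. Prox1 had 16.8 TPM (82.2 to 95.3 TPM in the others) and Pecam1 308 TPM (972 to 1157 TPM). The cause was not tested. Several of the results that rest on this library are therefore also given without it, though not all of them. Differences were tested with limma over all genes on log2(TPM + 1), and a gene is said to have risen or fallen where its Benjamini-Hochberg adjusted p did not exceed 0.05 and its log2 fold change reached 1 or -1. A fold change on this scale understates that of low genes. The p-values measure the spread between these pooled libraries. In bulk RNA, fewer cells of a type and less RNA per cell cannot be told apart.

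The 9 genes lie within 0.47 Mb of chromosome 12 in mm10, inside a block of 25 Serpina genes that spans 0.8 Mb. Serpina1e (chr12:103946931-103956897), Serpina11 (chr12:103980243-103989968) and Serpina12 (chr12:104028769-104044443) sit at its one side. Serpina3f (chr12:104214544-104221129), Serpina3g (chr12:104236147-104241939), Serpina3h (chr12:104247896-104254405), Serpina3k (chr12:104338486-104345739), Serpina3m (chr12:104387157-104394259) and Serpina3n (chr12:104406646-104414334) follow. RefSeq annotates 8 of them as protein coding and Serpina3h as a transcribed pseudogene.

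Over the aligned coding sequence Serpina3n is 83.4% identical to Serpina3k, 84.8% to Serpina3g, 85.2% to Serpina3m and 85.3% to Serpina3f. Printed here are the 96 coding bases from the conserved hinge through the reactive centre loop of the 6 Serpina3 genes, each from a single exon of its GENCODE transcript on GRCm38, the assembly of mm10. They are shown because the loop is the part that meets the protease; the copies also differ elsewhere. Capitals mark bases that differ from Serpina3n or face a gap in it. Serpina3h has no coding annotation, and its stretch was placed by its match to the non-member Serpina3i, with which it shares 87 of 96 bases.
Serpina3n: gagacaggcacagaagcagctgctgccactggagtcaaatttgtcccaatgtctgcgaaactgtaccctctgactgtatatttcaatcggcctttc
Serpina3g: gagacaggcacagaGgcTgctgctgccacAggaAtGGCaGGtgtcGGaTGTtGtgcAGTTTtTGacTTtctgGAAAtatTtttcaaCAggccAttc
Serpina3f: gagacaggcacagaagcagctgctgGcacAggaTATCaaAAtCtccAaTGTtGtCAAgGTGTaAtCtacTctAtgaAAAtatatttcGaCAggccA
Serpina3h: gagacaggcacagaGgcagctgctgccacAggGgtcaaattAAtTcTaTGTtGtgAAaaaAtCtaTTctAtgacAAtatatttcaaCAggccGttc
Serpina3k: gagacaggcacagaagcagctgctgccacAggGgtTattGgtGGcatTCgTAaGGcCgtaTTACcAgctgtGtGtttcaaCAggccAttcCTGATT
Serpina3m: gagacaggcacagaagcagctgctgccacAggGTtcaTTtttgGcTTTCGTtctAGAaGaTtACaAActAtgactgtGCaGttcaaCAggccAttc
Against Serpina3n, 23 positions differ or are gapped in Serpina3h, 28 in Serpina3m, 32 in Serpina3g, 35 in Serpina3f and 35 in Serpina3k. The positions are chr12:104413442-104413537 for Serpina3n, chr12:104241066-104241161 for Serpina3g, chr12:104220239-104220334 for Serpina3f, chr12:104253505-104253600 for Serpina3h, chr12:104345263-104345358 for Serpina3k and chr12:104393763-104393858 for Serpina3m, all on the plus strand.

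The α1-antitrypsin copies are closer still. Serpina1e is printed with the non-members Serpina1b, the most abundant of its copies here, and Serpina1c, because the copies share many windows of identical sequence. Capitals mark bases that differ from Serpina1b. All are on the minus strand, at chr12:103728308-103728403 for Serpina1b, chr12:103895078-103895173 for Serpina1c and chr12:103947084-103947179 for Serpina1e.
Serpina1b: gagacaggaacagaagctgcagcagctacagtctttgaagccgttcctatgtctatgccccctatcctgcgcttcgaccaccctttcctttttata
Serpina1c: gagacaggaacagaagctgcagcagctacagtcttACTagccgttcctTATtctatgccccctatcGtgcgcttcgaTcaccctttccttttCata
Serpina1e: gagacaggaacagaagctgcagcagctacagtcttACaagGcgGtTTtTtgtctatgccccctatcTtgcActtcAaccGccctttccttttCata
Serpina1c differs from Serpina1b at 9 of these positions and Serpina1e at 12. Over the whole coding sequence Serpina1e is 96.3% identical to Serpina1b and 96.5% identical to Serpina1c.

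Reads were single-end and 50 bases long, so the share of a transcript's 50-base windows that also occur in another gene bounds what the counting could separate. That share was 0% for Serpina12, 6.90% for Serpina3n, 10.6% for Serpina3f, 14.04% for Serpina3k, 15.5% for Serpina3g, 19.1% for Serpina3m, 21.9% for Serpina3h, 34.6% for Serpina1e and 35.7% for Serpina11. The windows of Serpina11 were shared with the read-through model Gm28577 alone. The study's methods name RefSeq annotation, and whether it holds this model was not checked. Serpina3k and Serpina3m shared 257 windows with each other, and Serpina3h shared 218 with Serpina3i and 195 with Serpina3g. By this measure Serpina12 and Serpina3n shared the least sequence with other genes and Serpina11 and Serpina1e the most. How far this held for the reads of these mice was not tested.

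Serpina3g, Serpina3n, Serpina3f and Serpina3h were abundant, with means over the 16 libraries of 2366, 864, 721 and 430 TPM. Serpina1e averaged 19.9 TPM, Serpina3m 11.6, Serpina3k 4.36, Serpina12 2.08 and Serpina11 1.33 TPM. Serpina3g and Serpina3n thus stood above or beside Serping1, the C1 inhibitor, which led the 55 other serpins with 844 TPM.

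**Figure D1:**
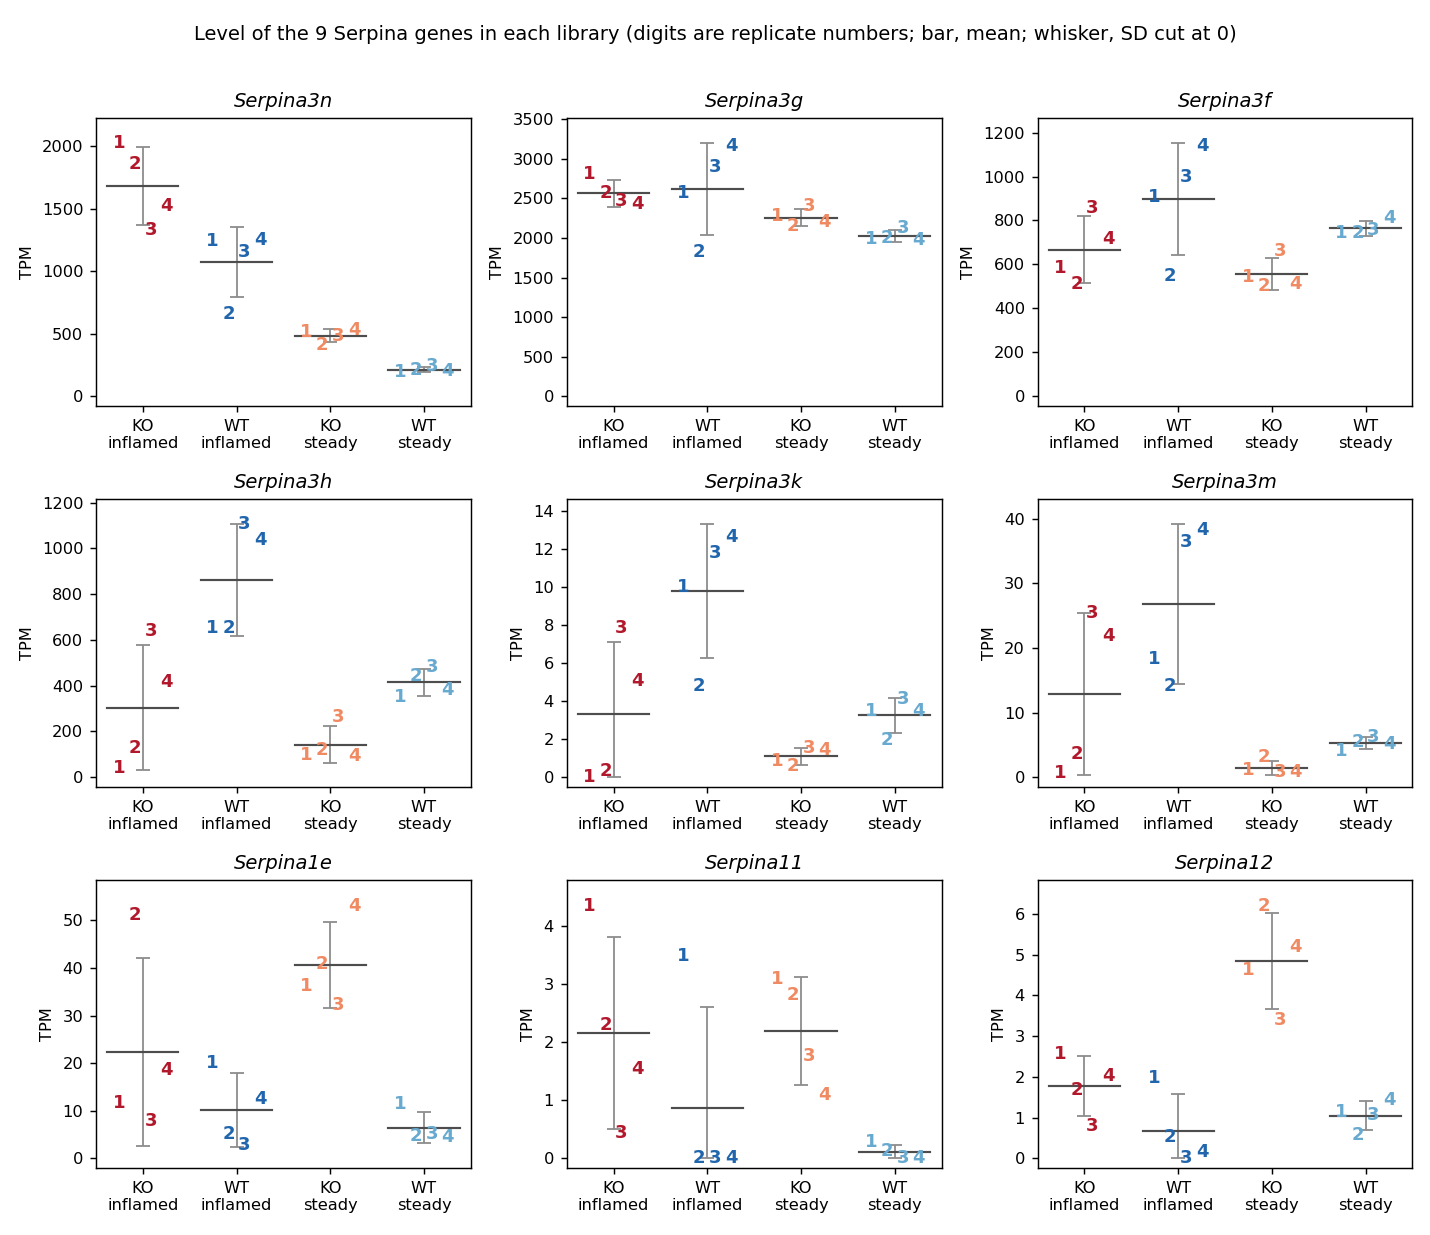
TPM of the 9 Serpina genes (one panel each, y axis from 0) in KO inflamed, WT inflamed, KO steady state and WT steady state LECs, left to right; each digit is 1 library by its replicate number, the bar is the mean and the whisker the SD, cut at 0. The 4 KO inflamed libraries of Serpina3h run from 38.9 to 637 TPM, while those of Serpina3g lie between 2431 and 2807 TPM.

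Serpina3n encodes a secreted inhibitor of granzyme B, neutrophil elastase and cathepsin G, and it rose after OVA in both genotypes. It had 2024, 1857, 1333 and 1524 TPM in KO inflamed replicates 1 to 4 and 1242, 656, 1156 and 1247 TPM in WT inflamed replicates 1 to 4. It had 514, 410, 484 and 533 TPM in KO steady state libraries, against 190, 210, 241 and 204 TPM in WT steady state libraries. The 4 groups do not overlap in any of the 4 comparisons between them, with KO above WT and inflamed above steady state. The log2 fold change after OVA was 1.78 in KO LECs (SE 0.13, limma adjusted p = 3.05e-06) and 2.30 in WT LECs (SE 0.22, adjusted p = 0.00091, and 2.52 without WT inflamed replicate 2). Between KO and WT it was 1.19 (SE 0.097) at steady state and 0.67 (SE 0.23) in inflamed LECs, and 0.45 in inflamed LECs without WT inflamed replicate 2.

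Serpina3g encodes an intracellular inhibitor of lysosomal cathepsins that interferon-γ induces in macrophages. It was the most abundant of the 9. It had 2807, 2565, 2462 and 2431 TPM in KO inflamed libraries, and 2571, 1823, 2898 and 3169 TPM in WT inflamed libraries. It had 2274, 2146, 2402 and 2208 TPM in KO steady state libraries, against 1992, 2002, 2131 and 1970 TPM in WT steady state libraries. KO lay above WT at steady state with no overlap, by 0.16 on the log2 scale (SE 0.058). The log2 fold change after OVA was 0.18 in KO LECs (SE 0.061, limma adjusted p = 0.0226), under the fold threshold, and 0.34 in WT LECs (SE 0.17, adjusted p = 0.383). Without WT inflamed replicate 2 the WT value was 0.50 (adjusted p = 0.000958), still under the fold threshold. In KO LECs the value was -0.07 when libraries were rescaled by their median ratio and 0.40 under quantile normalization (limma adjusted p = 0.000601).

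Serpina3f lies beside Serpina3g and had 584, 511, 858 and 713 TPM in KO inflamed libraries and 908, 546, 997 and 1140 TPM in WT inflamed libraries. It had 542, 503, 661 and 512 TPM in KO steady state libraries, against 742, 741, 758 and 812 TPM in WT steady state libraries. At steady state KO lay below WT with no overlap, with a log2 difference of -0.47 (SE 0.086), under the fold threshold. It passed the test after OVA in neither genotype, with log2 fold changes of 0.25 in KO LECs (limma adjusted p = 0.171) and 0.18 in WT LECs (adjusted p = 0.82). Without WT inflamed replicate 2 the WT value was 0.41 (adjusted p = 0.00429), under the fold threshold. The KO value was -0.01 when libraries were rescaled by their median ratio and 0.32 under quantile normalization (limma adjusted p = 0.121).

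Serpina3h, the transcribed pseudogene, varied widely within the KO groups. In KO inflamed replicates 1 to 4 it had 38.9, 126, 637 and 415 TPM, against 654, 651, 1104 and 1036 TPM in WT inflamed replicates 1 to 4. In KO steady state libraries it had 95.6, 118, 261 and 92.6 TPM, against 350, 444, 482 and 381 TPM in WT steady state libraries. KO libraries lay below WT libraries with no overlap in both states, by -2.13 (SE 0.76) in inflamed LECs and -1.67 (SE 0.27) at steady state on the log2 scale. After OVA it rose in WT LECs by 1.02 on the log2 scale (SE 0.21, limma adjusted p = 0.0253). In KO LECs the inflamed and steady state libraries overlapped and it did not pass (0.56, SE 0.73, adjusted p = 0.525). The WT call was lost when any of 6 of the 8 libraries was left out (WT inflamed replicate 3 or 4, or any WT steady state library), with adjusted p between 0.0607 and 0.102 there and between 0.000698 and 0.343 over all alternatives. The KO value moved to 1.32 (adjusted p = 0.049) without KO inflamed replicate 1.

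Serpina3k, known as the kallikrein-binding protein, and Serpina3m were low and followed Serpina3h. Serpina3m had 0.659, 3.64, 25.4 and 21.9 TPM in KO inflamed replicates 1 to 4 and 18.3, 14.1, 36.4 and 38.3 TPM in WT inflamed replicates 1 to 4. It had 1.17, 3.08, 0.810 and 0.835 TPM in KO steady state libraries, against 4.06, 5.46, 6.30 and 5.08 TPM in WT steady state libraries. The inflamed groups overlap, since KO inflamed replicates 3 and 4 reach the WT range, and the steady state groups do not. Serpina3k had 0, 0.327, 7.85 and 5.06 TPM in KO inflamed libraries and 9.97, 4.80, 11.8 and 12.6 TPM in WT inflamed libraries. It had 0.842, 0.604, 1.52 and 1.45 TPM in KO steady state libraries, against 3.46, 1.96, 4.13 and 3.46 TPM in WT steady state libraries.

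After OVA, Serpina3m rose in WT LECs by 2.05 on the log2 scale (SE 0.34, limma adjusted p = 0.00916, 2.30 without WT inflamed replicate 2). In KO LECs its log2 fold change of 1.83 did not pass (SE 0.76, adjusted p = 0.0586). It was 2.60 (adjusted p = 0.00285) without KO inflamed replicate 1 and 2.10 (adjusted p = 0.0475) without replicate 2, and the adjusted p ran from 0.00285 to 0.154 over all alternatives. Serpina3k rose in WT LECs by 1.30 (SE 0.32, adjusted p = 0.0475). That call was lost when any library but WT inflamed replicate 2 was left out, with adjusted p between 0.0978 and 0.16, and its adjusted p ran from 0.000256 to 0.16 over all alternatives. In KO LECs Serpina3k stood at 0.49 (SE 0.61, adjusted p = 0.509). Between KO and WT, Serpina3m differed by -1.63 (SE 0.85) in inflamed LECs and -1.41 (SE 0.25) at steady state, and Serpina3k by -1.82 (SE 0.70) and -1.01 (SE 0.21) in the same order of states.

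Serpina1e is 1 of several mouse copies of α1-antitrypsin, the main inhibitor of neutrophil elastase in plasma. It had 11.6, 51.2, 7.88 and 18.6 TPM in KO inflamed libraries and 20.1, 5.18, 2.85 and 12.5 TPM in WT inflamed libraries, which overlap. It had 36.3, 40.8, 32.3 and 53.1 TPM in KO steady state libraries, against 11.3, 4.79, 5.20 and 4.47 TPM in WT steady state libraries, with no overlap. The steady state difference of 2.54 on the log2 scale (SE 0.25) was the widest between KO and WT among the 9 genes at this pseudocount. With a pseudocount of 0.1 TPM it was 2.72, against 3.64 for Serpina11. After OVA it fell in KO LECs by 1.15 on the log2 scale (SE 0.44, limma adjusted p = 0.0415), and it did not pass in WT LECs (0.37, SE 0.52, adjusted p = 0.865). The fall rests on single libraries. It was 1.66 on the log2 scale (log2 fold change -1.66, adjusted p = 0.000344) without KO inflamed replicate 2, and it did not pass when any other of the 8 libraries was left out (log2 fold changes of -1.25 to -0.80), with an adjusted p of up to 0.121 over all alternatives.

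Serpina12 encodes vaspin, an adipokine that inhibits kallikrein 7. It had 2.56, 1.68, 0.799 and 2.02 TPM in KO inflamed libraries and 1.98, 0.514, 0 and 0.165 TPM in WT inflamed libraries. It had 4.62, 6.20, 3.38 and 5.19 TPM in KO steady state libraries, against 1.13, 0.565, 1.07 and 1.43 TPM in WT steady state libraries. KO lay above WT at steady state with no overlap, by 1.51 on the log2 scale (SE 0.20). It fell after OVA in KO LECs with no overlap, with a log2 fold change of -1.10 (SE 0.22, limma adjusted p = 0.00161). That value was -0.91 without KO inflamed replicate 3 and -0.99 without KO steady state replicate 2, both under the fold threshold, and the adjusted p stayed between 0.000816 and 0.0165 over its alternatives. In WT LECs it did not pass (-0.42, SE 0.33, adjusted p = 0.648).

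Serpina11 was near the floor. It had 4.35, 2.30, 0.441 and 1.54 TPM in KO inflamed libraries, against 3.48 TPM in WT inflamed replicate 1 and a listed 0 in WT inflamed replicates 2, 3 and 4. It had 3.09, 2.81, 1.76 and 1.09 TPM in KO steady state libraries, against 0.273, 0.128, 0 and 0 TPM in WT steady state libraries. The steady state groups did not overlap (log2 difference 1.49, SE 0.22), with 4 of 4 KO and 0 of 4 WT libraries at 1 TPM, so that it passed the filter through KO alone, and the inflamed groups did (0.96, SE 0.56). In WT LECs too few libraries reached 1 TPM for a test of OVA, and in KO LECs the log2 fold change after OVA was -0.12 (limma adjusted p = 0.794).

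**Figure D2:**
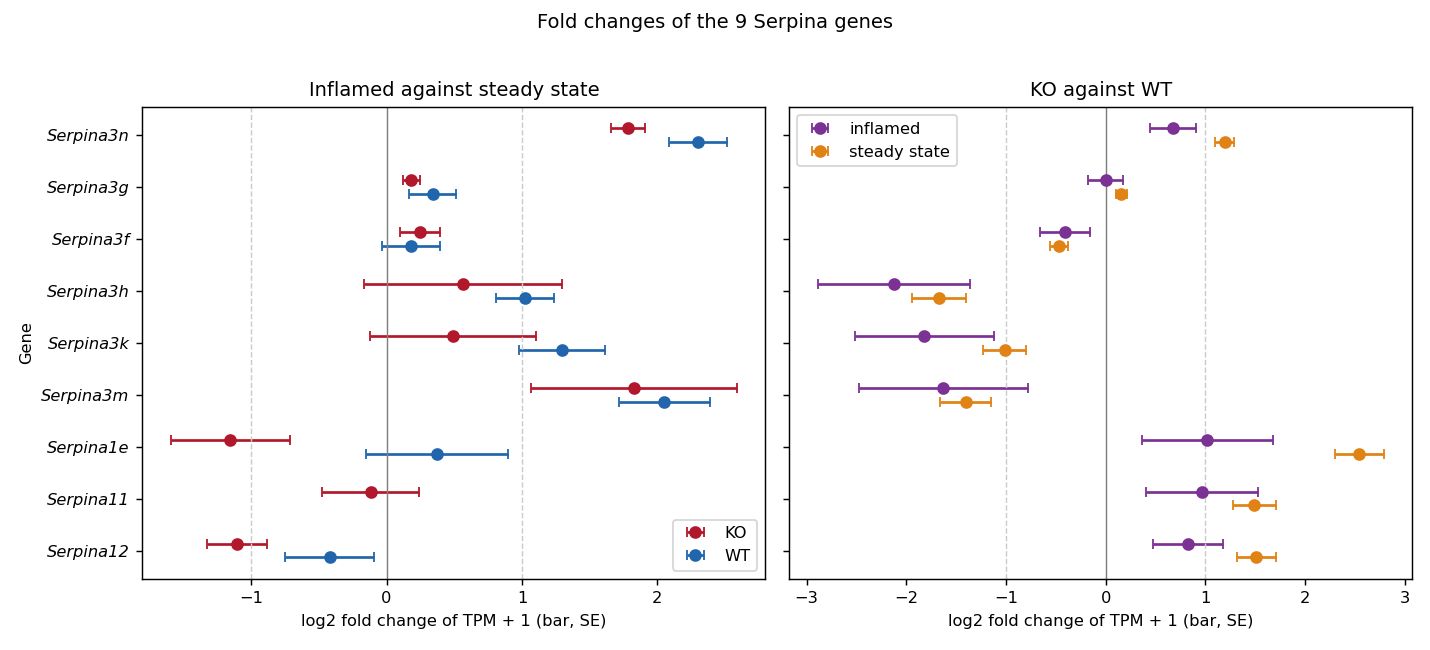
Log2 fold change of TPM + 1 with its SE (x axis) for the 9 Serpina genes (y axis), inflamed against steady state within each genotype on the left and KO against WT within each state on the right; dashed lines mark a log2 fold change of 1 in size. Serpina3n lies at 1.78 in KO and 2.30 in WT after OVA, and Serpina1e at 2.54 between KO and WT at steady state; Serpina11 has no WT value because it was not tested there.

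At steady state, 4 of the 9 genes were called higher in KO (Serpina3n, Serpina1e, Serpina11 and Serpina12) and 3 lower (Serpina3h, Serpina3k and Serpina3m), where 0.821% of the 12058 genes tested were called, 0.431% higher and 0.39% lower. All 9 had groups that did not overlap, where 6.54% of all genes did not. Nothing is read from these counts, since this contrast took part in choosing the genes. Of the 7 called, Serpina3k lost its call when any of 7 of the 8 libraries was left out, and Serpina3m without KO steady state replicate 3 or 4. In these last 2 cases Serpina11 reached 1 TPM in too few libraries for a test, and 4 of the 9 were called. A fit over all 16 libraries called 3. In inflamed LECs, 0 of the 9 met both thresholds between KO and WT, where 0.316% of 12030 genes did (0.191% higher and 0.125% lower), and nothing is read from this count either. Only Serpina3n (KO higher) and Serpina3h (KO lower) did not overlap there, where 5.19% of all genes did not. Over all genes the median log2 difference of KO from WT in inflamed LECs was 0.20.

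The changes after OVA were also known when the 9 genes were chosen, so nothing is read from their counts and medians either. After OVA, 1 of the 9 rose in KO LECs (Serpina3n) and 2 fell (Serpina1e and Serpina12), where 9.47% of 12161 genes were called (6.41% higher and 3.06% lower) and the median of all genes was 0.24 on the log2 scale. The median of the 9 was 0.25. Serpina3n, Serpina3g and Serpina12 had groups that did not overlap, where 54.1% of all genes did not. Without KO inflamed replicate 3 or KO steady state replicate 2, 1 of the 9 was called. In WT LECs 4 of the 8 genes tested rose (Serpina3n, Serpina3m, Serpina3k and Serpina3h) and 0 fell, where 3.96% of 12031 genes were called, 1.99% higher and 1.97% lower. The same 4 had groups that did not overlap, where 14.1% of all genes did not. The median of the 8 was 0.70, and that of all genes -0.03. The 4 were also called without WT inflamed replicate 2, while 2 were called without WT inflamed replicate 3 or 4 or without any WT steady state library, and a fit over all 16 libraries called 1 of the 8. The 4 WT steady state libraries serve both in the WT comparison and in the steady state comparison of KO with WT. The KO steady state libraries serve both in the KO comparison and in that steady state comparison, where Serpina1e and Serpina12 were called higher in KO. With libraries rescaled by their median ratio, 404 genes were called higher and 601 lower in KO LECs, in place of 780 and 372. In WT LECs it was 340 higher and 220 lower, in place of 239 and 237. The calls of Serpina3n, Serpina1e, Serpina12, Serpina3m, Serpina3k and Serpina3h after OVA were kept under that scaling and under quantile normalization.

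The difference between genotypes in the response to OVA was tested as an interaction over 16 libraries. By limma 0 of the 9 genes passed, and 0 had an unadjusted p under 0.05, with adjusted p between 0.668 and 0.917. Over all 12684 genes 0 passed (0%), and 542 had an unadjusted p under 0.05. The fall of Serpina1e and Serpina12 in KO LECs and the rise of Serpina3m, Serpina3k and Serpina3h in WT LECs are therefore not shown to differ between the genotypes. The interaction of Serpina1e was -1.52 (SE 0.76) and that of Serpina3n -0.52 (SE 0.27) on the log2 scale. Without WT inflamed replicate 2 the values were -1.71 for Serpina1e and -0.74 for Serpina3n, and 0 of the 9 passed.

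The KO and WT libraries overlapped in the summed TPM of the Serpina3 genes in both states, while the shares of Serpina3n and Serpina3h did not overlap. These shares restate differences between KO and WT that took part in choosing the genes. Serpina3g, with the largest share, weighs most in the sum. Nothing is therefore read from the sum and the shares together. The 6 Serpina3 genes together made 5238 ± 183 TPM in KO inflamed and 5486 ± 1301 TPM in WT inflamed LECs, and 3441 ± 266 TPM in KO steady state and 3421 ± 144 TPM in WT steady state LECs (SD, n = 4 each). In single libraries the sum was 5454, 5064, 5324 and 5110 TPM in KO inflamed and 5403, 3694, 6205 and 6644 TPM in WT inflamed LECs, the second of which is WT inflamed replicate 2. Of the TPM of all 11 Serpina3 genes in the tables, Serpina3n took 12.4% to 15.6% in KO steady state libraries, against 5.66% to 6.46% in WT steady state libraries. Serpina3h took 2.71% to 6.69% in KO steady state libraries, against 10.4% to 12.9% in WT steady state libraries. After OVA Serpina3n reached 24.2% to 36.3% in KO inflamed and 17.1% to 22.2% in WT inflamed libraries. Serpina3g took 44.7% to 50.3% in KO inflamed and 44.9% to 47.4% in WT inflamed libraries, and 61.6% to 66.1% in KO steady state and 57.0% to 59.2% in WT steady state libraries.

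The 5 genes Serpina1a to Serpina1e together made 96.1 ± 28.0 TPM in KO inflamed and 121 ± 74.2 TPM in WT inflamed LECs, and 180 ± 22.4 TPM in KO steady state and 150 ± 45.6 TPM in WT steady state LECs (SD, n = 4 each). Serpina1e took 17.02% to 27.8% of that sum in KO steady state libraries, against 2.99% to 5.71% in WT steady state libraries. The non-member Serpina1c took 5.61% to 13.6% in KO steady state libraries, against 19.0% to 23.9% in WT steady state libraries. Serpina1b held 65.0% to 69.6% in KO steady state and 67.3% to 72.7% in WT steady state libraries. As single genes, Serpina1c (-1.14, SE 0.30, limma adjusted p = 0.0957) and Serpina1b (0.27, SE 0.21, adjusted p = 0.693) did not pass between KO and WT at steady state. The higher share of Serpina1e in KO libraries thus stood beside a lower share of Serpina1c, a copy with which it has 417 windows of 50 bases in common. How the counting divided such reads was not tested.

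**Figure D3:**
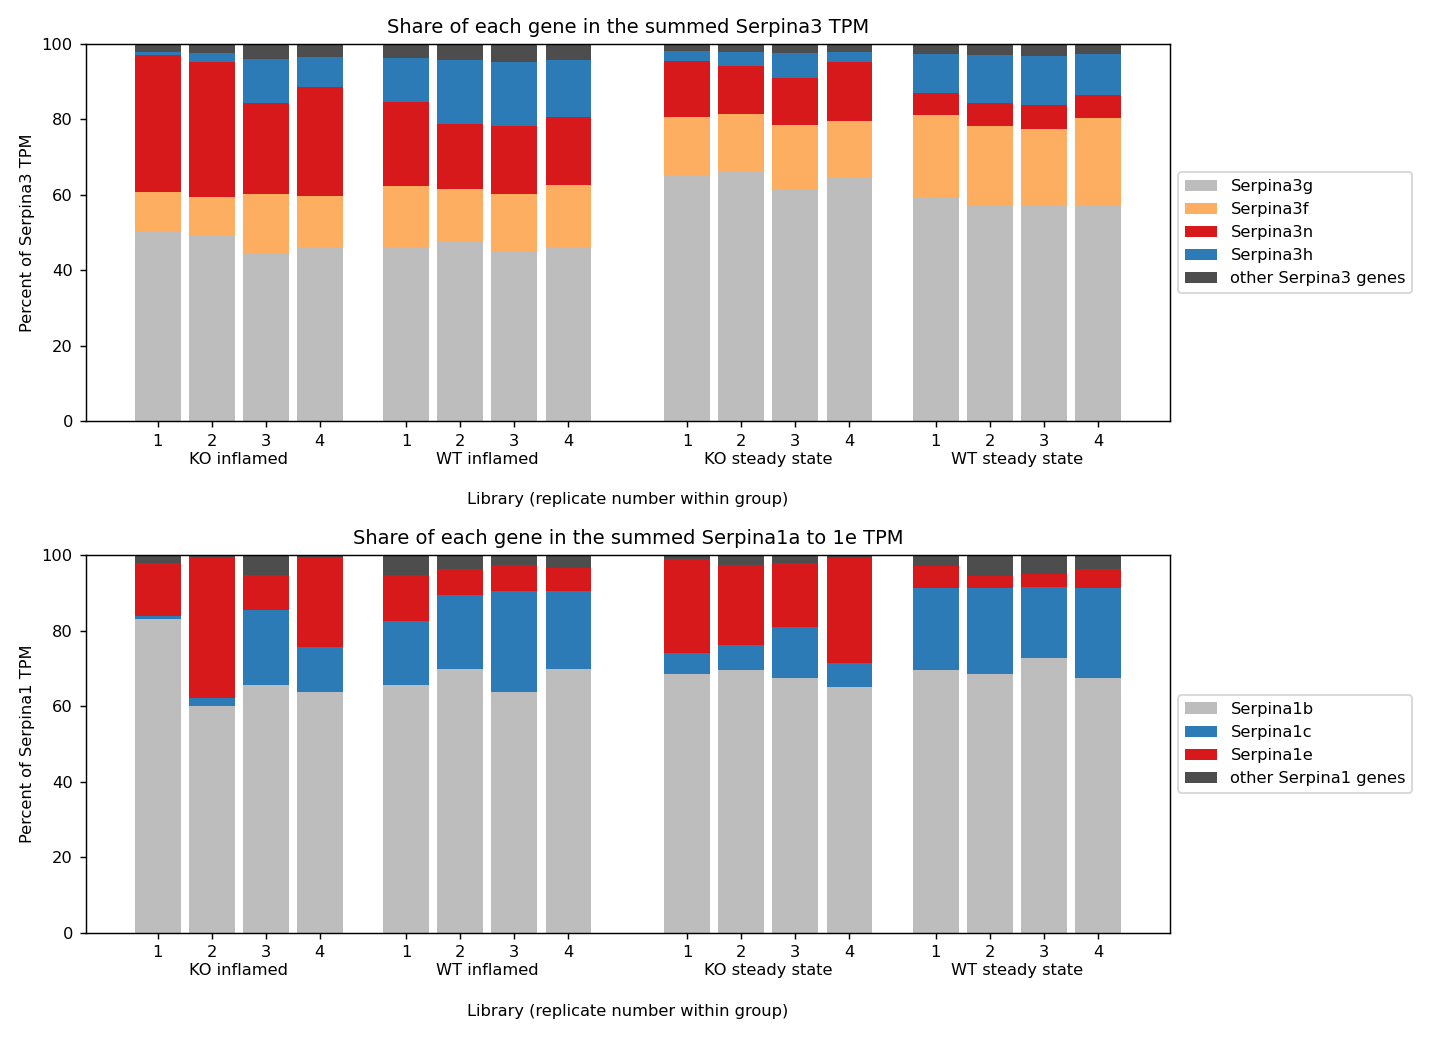
Share of each gene (y axis, percent) in the summed TPM of all Serpina3 genes (top) and of Serpina1a to Serpina1e (bottom) in each of the 16 libraries (x axis, grouped as KO inflamed, WT inflamed, KO steady state and WT steady state). Serpina3n holds 12.4% to 15.6% in KO steady state and 5.66% to 6.46% in WT steady state libraries, and Serpina1e holds 17.02% to 27.8% and 2.99% to 5.71% in the same groups.

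The KO inflamed libraries were not alike in these copies. Serpina3h, Serpina3k and Serpina3m were each lowest in KO inflamed replicate 1, next lowest in replicate 2 and highest in replicate 3. The non-member Serpina1c, which lies on the far side of Serpina1e, kept the same order with 0.805, 3.14, 17.1 and 9.43 TPM in KO inflamed replicates 1 to 4. In WT inflamed replicates 1 to 4 it had 27.6, 15.2, 11.3 and 41.7 TPM. In KO steady state LECs Serpina1c was highest in replicate 3 (25.8 TPM, the others 8.21 to 13.03 TPM), as was Serpina3h. Serpina3m was not, with 0.810 TPM in that library. Serpina3n and Serpina11 ran in the reverse order over the 4 KO inflamed libraries, and Serpina3g and Serpina1e followed neither. Over the expressed genes, the 9 among them, mean correlations within the KO inflamed group were 0.970 to 0.976. Genes outside the 9 varied there too. In KO inflamed replicates 1 to 4, Chst4 had 1.60, 16.3, 1.51 and 1.42 TPM, and Glycam1 had 2115, 3183, 1533 and 1595 TPM. Over the 16 libraries Pearson's r of log2(TPM + 1) was 0.93 between Serpina3h and Serpina3k, 0.87 between Serpina3h and Serpina3m, 0.89 between Serpina3k and Serpina3m and 0.70 between Serpina3h and Serpina1c. Serpina1e, Serpina11 and Serpina12 ran together (r of 0.74 to 0.80) and against Serpina3h (r of -0.79 to -0.63). Serpina3n had an r of -0.06 with Serpina3h and 0.77 with Serpina3g. These correlations describe 16 libraries that share 4 groups and, for Serpina3k and Serpina3m, 257 windows of identical sequence.

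**Figure D4:**
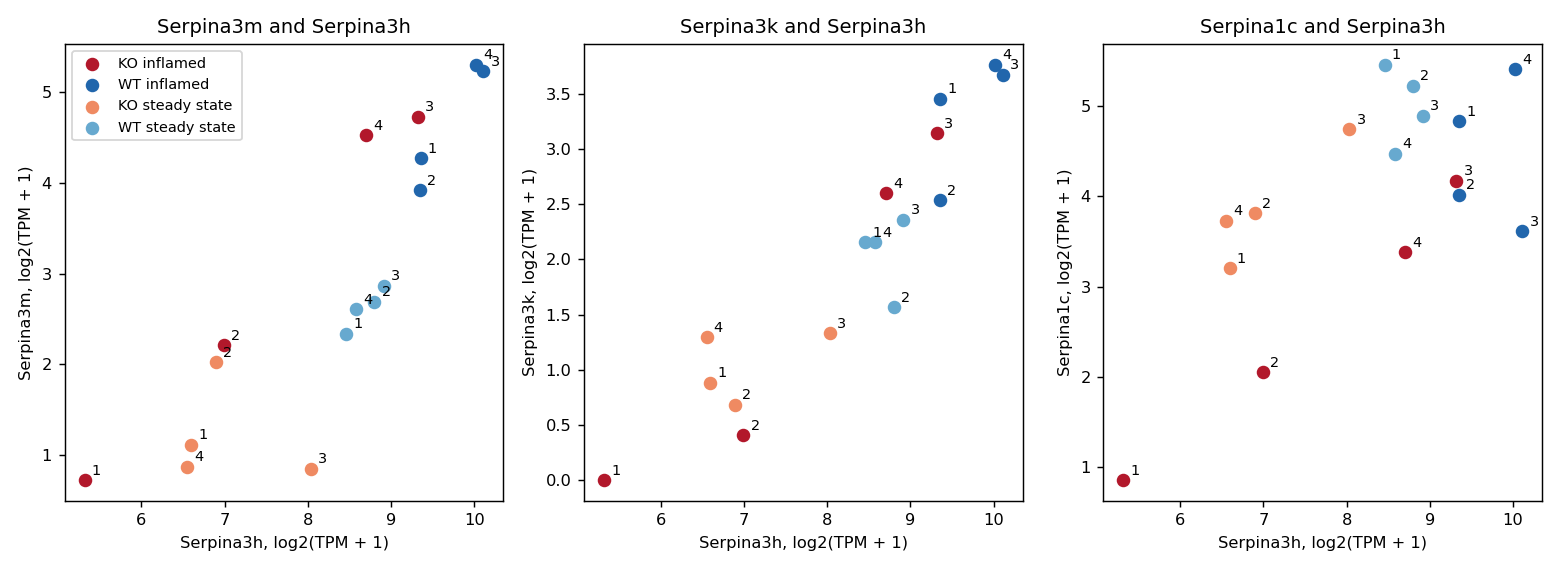
Log2(TPM + 1) of Serpina3m, Serpina3k and the non-member Serpina1c (y axes) against that of Serpina3h (x axes) in the 16 libraries, coloured by group and labelled with the replicate number. KO inflamed replicate 1 is lowest on all 4 genes (Serpina3h 38.9 TPM, Serpina1c 0.805 TPM), while KO inflamed replicates 3 and 4 lie near the WT libraries.

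Of the 17 other Serpina genes, 6 were tested between KO and WT at steady state and 0 passed by limma, with 4 of them at an unadjusted p under 0.05, where 11.7% of all genes were. After OVA 2 of 8 rose by limma in WT LECs (1.99% of all genes), Serpina3b (log2 fold change 1.19, SE 0.23, adjusted p = 0.0174) and Serpina3i (1.12, SE 0.20, adjusted p = 0.0132). Serpina3b reached 1 TPM in 4 of 4 WT inflamed and 0 of 4 WT steady state libraries, so that it passed the filter only through the group where it was high. Serpina3i had 120, 116, 179 and 146 TPM in KO inflamed and 179, 145, 251 and 230 TPM in WT inflamed libraries, against 58.0 to 84.8 TPM in KO steady state and 80.4 to 105 TPM in WT steady state libraries. In KO LECs Serpina3i stood at 0.996 and Serpina3b at 0.86 on the log2 scale, both under the fold threshold. Among all 55 other serpins 0 of 17 passed between KO and WT at steady state, with 5 at an unadjusted p under 0.05 (11.7% of all genes). After OVA Serpinh1, a collagen chaperone, rose in KO LECs (1.00, SE 0.076, adjusted p = 4e-06). Without WT inflamed replicate 2, 6 other serpins passed in WT LECs in place of 3, and 0 or 1 did when any other of the 8 libraries was left out. In KO LECs 2 or 3 passed without KO inflamed replicate 1, 2 or 4 or KO steady state replicate 3. At steady state 1 passed between KO and WT without KO steady state replicate 3. The abundant serpins Serping1, Serpinh1, Serpinb6a, Serpinb6b and Serpinb9 averaged 844, 499, 369, 213 and 203 TPM, and none of them passed between KO and WT in either state.

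Of the 100 genes within 5 Mb of the 9, 54 were tested between KO and WT at steady state. By limma 0 passed. Of the 54, 11 had an unadjusted p under 0.05, a larger share than the 11.7% of all genes. After OVA 4 of 55 rose in KO LECs, namely Moap1 (1.21), Eml1 (1.10), Papola (1.03) and Ttc7b (1.03), and 2 fell, Gm2721 (-1.36) and the interferon-induced Ifi27 (-1.01). Over all genes 6.41% rose and 3.06% fell there, so nothing is read from these counts. Gm2721 reached 1 TPM in 0 of 4 KO inflamed and 4 of 4 KO steady state libraries and passed the filter only through the group where it was high. In WT LECs D430019H16Rik fell (-1.11) and 0 rose among 53, where 1.97% of all genes fell and 1.99% rose. Ifi27 lies 0.51 Mb from the nearest of the 9 genes and had 331 to 392 TPM in KO inflamed against 711 to 816 TPM in KO steady state libraries.

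Among 15 possible target proteases listed for these serpins (granule proteases, cathepsins and kallikreins), 1 of 8 tested was higher in KO at steady state (0.431% of all genes). Ctsg, which encodes cathepsin G, had 15.2, 16.6, 9.80 and 8.48 TPM in KO steady state libraries, against 4.74, 4.20, 3.9995 and 4.23 TPM in WT steady state libraries (log2 fold change 1.30, SE 0.20, limma adjusted p = 0.00475). The call was lost with a pseudocount of 5 TPM and in a fit over all 16 libraries. Ctsg fell after OVA in KO LECs (-2.60, SE 0.35, adjusted p = 0.00012) and in WT LECs (-1.86, SE 0.29, adjusted p = 0.00757), where Ctss, encoding cathepsin S, also fell (-1.05, SE 0.16, adjusted p = 0.00558). Only 1 of 4 WT inflamed libraries had 1 TPM of Ctsg, against 4 of 4 WT steady state libraries. In WT LECs 1 of these proteases passed without WT inflamed replicate 2 or WT steady state replicate 4, and in KO LECs 2 passed without KO inflamed replicate 1 or KO steady state replicate 1. A pseudocount of 0.1 or 5 TPM or a filter of 5 TPM also left 1 in WT LECs, and no filter or either scaling gave 2 in KO LECs. Ctsl, encoding cathepsin L, was higher in KO than WT inflamed LECs, at 1099, 1326, 1166 and 1279 TPM in KO against 646, 371, 562 and 627 TPM in WT (1.17, SE 0.19, adjusted p = 0.0474). That call was lost whichever of the 8 libraries was left out, with a pseudocount of 0.1 TPM, with no filter or one of 5 TPM, under rescaling by the median ratio, without the variance trend and with a replicate block. Elane was at a listed 0 in 14 of the 16 libraries.

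The acute phase and gp130-STAT3 list holds acute phase genes together with interleukin-6 type cytokines and their receptors. After OVA 5 of 17 rose and 2 fell in KO LECs, where 6.41% of all genes rose and 3.06% fell. In WT LECs 3 of 18 rose and 0 fell, where 1.99% of all genes rose and 1.97% fell, with 7 called without WT inflamed replicate 2. Saa3 (serum amyloid A) rose by 3.68 in KO (SE 0.29) and 3.65 in WT (SE 0.36, with 1 of 4 WT steady state libraries at 1 TPM), and Lcn2 (lipocalin 2) by 2.28 in KO (SE 0.21) and 3.73 in WT (SE 0.21). Steap4 (2.40) and Osmr (1.49), the oncostatin M receptor, rose in KO LECs and Lrg1 (1.02) in WT LECs. Between KO and WT at steady state 0 of 18 passed, with 7 at an unadjusted p under 0.05 (11.7% of all genes). Of the interferon-γ list, 10 of 19 rose in KO LECs (6.41% of all genes), led by Gbp4 (2.06), Iigp1 (1.92), Gbp5 (1.79) and Gbp6 (1.44). In WT LECs 3 of 19 rose (1.99% of all genes), namely Cxcl9 (1.75), Igtp (1.34) and Cxcl10 (1.16). Of the list, 12 were called without WT inflamed replicate 2 and 1 when any other library was left out. With libraries rescaled by their median ratio, 5 were called in KO LECs and 6 in WT LECs. Between KO and WT at steady state 0 of 19 passed, with 4 at an unadjusted p under 0.05 (11.7% of all genes).

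Among markers of other cells, 1 of 7 for blood endothelium and high endothelial venules was higher in KO at steady state (0.431% of all genes). The summed level of the 7 was 5552 to 6627 TPM in KO against 3327 to 3968 TPM in WT. The 1 marker called, Glycam1, had 4454, 5191, 3873 and 4240 TPM in KO steady state libraries, against 2436, 1948, 2070 and 1868 TPM in WT steady state libraries. Glycam1 carried the difference in the sum, but it did not shift alone. KO exceeded WT for 6 of the 7 markers, Glycam1 among them. The middle log2 difference of the 7 was 0.35, against -0.04 over all genes. By limma 3 of the 7 had an unadjusted p under 0.05 (11.7% of all genes). The abundant Plvap was nearly level, at a mean of 1503 TPM in KO and 1513 TPM in WT. Over the 16 libraries Glycam1 had an r of 0.87 with Serpina12, 0.76 with Serpina1e and 0.61 with Serpina11. Its r was -0.81 with Serpina3f, -0.76 with Serpina3m, -0.70 with Serpina3k, -0.68 with Serpina3h, -0.41 with Serpina3g and -0.25 with Serpina3n. Of 9 leukocyte markers, 1 (S100a9) was higher in KO at steady state (0.431% of all genes). The sum of the 9 was 314 to 453 TPM in KO and 318 to 904 TPM in WT. Lyz2, which averaged 312 TPM in KO and 470 TPM in WT steady state libraries, made most of that sum. Over the 16 libraries Lyz2 had an r of -0.82 with Serpina3n. After OVA 6 of 8 leukocyte markers fell in KO LECs (3.06% of all genes), with a sum of 81.3 to 133 TPM in KO inflamed against 314 to 453 TPM in KO steady state libraries. In WT LECs 2 of 8 fell (1.97% of all genes), with a sum of 58.1 to 97.4 TPM in WT inflamed against 318 to 904 TPM in WT steady state libraries. Of 7 tested lymphatic markers 4 rose in KO LECs after OVA (6.41% of all genes), Lyve1 among them (1.69, SE 0.099). The part of these shifts in the Serpina values was not tested. Of 5 adipocyte markers, Adipoq, Plin1, Lep and Cidec stayed under 1 TPM in all 16 libraries, while Fabp4 had 829 to 2638 TPM and made nearly all of their sum. Of 8 hepatocyte markers, 4 to 5 stayed under 1 TPM in every library of a group, and Trf, at 847 to 1976 TPM, made nearly all of their sum. Of 6 fibroblast markers 1 rose after OVA in each genotype (6.41% of all genes in KO LECs and 1.99% in WT LECs) and 0 passed between KO and WT.

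By the correlation of log2(TPM + 1) over 16 libraries and 9729 genes outside the 9, Serpina3n was most like Lgmn (r = 0.97), which encodes the lysosomal protease legumain, Tyms (0.96), Sparc (0.95), Dlgap5 (0.95) and Galnt18 (0.94). Lgmn had 1592, 1452, 1432 and 1598 TPM in KO inflamed and 1255, 1239, 1427 and 1388 TPM in WT inflamed libraries, and 779 to 913 TPM in KO steady state against 662 to 708 TPM in WT steady state libraries. Serpina3g was most like Ints9 (0.94), Uba7 (0.93), Scarb2 (0.93), Cyb561a3 (0.92) and Sbno2 (0.92). Serpina3f was most like Pla2g7 (0.90), Tbc1d10a (0.84), Zfp367 (0.83), F11r (0.82) and Gsdmd (0.82). Among the genes most like Serpina3h were Rnase10 (0.82), D030056L22Rik (0.81), Pla2g7 (0.79) and Chchd4 (0.79). Serpina3m, whose r was 0.89 with Serpina3k and 0.87 with Serpina3h among the members, was outside them most like Serpina3i (0.86), then Tnfaip2 (0.85), Ilk (0.83), Gsdmd (0.81) and Rnase10 (0.81). Serpina1e was most like Spa17 (0.87), Lrrc3b (0.79), Gfra2 (0.79), 5930430L01Rik (0.78) and Iqcg (0.78). Each of these lay higher in KO than in WT steady state libraries with no overlap, where 6.54% of all genes did not overlap. They were picked for following Serpina1e, which separates the same groups, so nothing is read from this. Lgmn, Serpina3i and Tnfaip2 lie on chromosome 12, as do the 9 genes. Dlgap5, Ints9, Rnase10, Lrrc3b and Gfra2 lie on chromosome 14, as does Stab1. The share of each chromosome among the genes compared was not counted, so nothing is read from these positions. The r values mix differences between the 4 groups with those within them, and shared regulation was not tested.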

How the data were processed

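RNA of sorted LN LECs was measured in 16 libraries, 4 in each of 4 groups named by the sample labels, with SMART-Seq v4 cDNA and Nextera XT libraries. The authors deposited gene-level TPM on mm10. Their methods name STAR and salmon for this step, whereas the submitters' processing notes list Subread, limma and STAR 2.5.2b. The depth per library is unknown, because TPM do not keep it. The 3 TPM tables repeat 8 library columns, and 0 repeated values differ, so they were read as 1 table of 24946 genes, after 26 names turned into dates were dropped. The other 7 tables hold the authors' own fold changes and q values and were not used.

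Each comparison used limma 3.58.1 (R 4.3.3) on the genes that reached 1 TPM in 4 or more of its libraries (log2(TPM + 1), eBayes with trend, Benjamini-Hochberg over all genes tested), without a replicate term, at an adjusted p of 0.05 and a log2 fold change of 1. The fit was tested on simulated data. Windows of 50 bases and coding identity came from GENCODE M21 transcripts of GRCm38, positions from RefSeq, by Python 3.11.15 and Biopython 1.88. Figures were drawn with matplotlib 3.10.9. The members, gene lists and tests were chosen with earlier results of these data known. Named were all 9 members, other serpins that passed or were the 5 most abundant, up to 4 listed genes and 8 neighbours a comparison, the 5 genes most like each member that averaged 5 TPM, Stab1 and markers; 2 genes that this rule names are not reported here. Serpina1b, Serpina1c, Serpina3i, Elane, Alb, Ccl21a, Plvap, Adipoq, Plin1, Lep, Cidec, Fabp4 and Trf were named after their values were seen. Other settings tried were a pseudocount of 0.1 or 5 TPM, a filter of 5 TPM or none, 2 scalings, no trend, a replicate block, 1 fit over 16 libraries, a sum over all Serpina3 genes, and leaving out each library.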

Additional observations from a re-analysis of the deposited data

Results flagged for a closer look

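Within the 36 sets of 4 libraries (9 genes in 4 groups), 5 had a library set apart from the other 3 by Dixon's criterion at the 95% level, which chance meets in about 1 in 20 sets. Serpina3n was lowest in WT inflamed replicate 2 at 656 TPM, the library that stands apart in the whole transcriptome. Serpina3h was highest in KO steady state replicate 3 at 261 TPM. Serpina3m was highest in KO steady state replicate 2 at 3.08 TPM. Serpina1e was highest in WT steady state replicate 1 at 11.3 TPM, and Serpina11 in WT inflamed replicate 1 at 3.48 TPM.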

How the results depend on the processing

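Of 777 recomputed fold changes of the 9 genes, 715 kept their direction and their side of the threshold, 58 lost a call, 4 gained one and 0 called values turned round. With a pseudocount of 5 TPM, which shrinks the fold changes of low genes, the members called numbered 3 between KO and WT at steady state (7 with 1 TPM) and 1 after OVA in KO LECs (3). All genes called numbered 45 at steady state (99), 262 after OVA in WT (476), 539 in KO (1152) and 1 in the interaction (0), and other serpins 1 in WT (3) and 0 in KO (1). With a pseudocount of 0.1 TPM, 4 other serpins were called in KO. With no filter, the members called were 4 at steady state and 2 in WT after OVA (4), with 2 other serpins in KO and 2 genes in the interaction. A filter of 5 TPM, which leaves fewer genes tested, gave 3 members at steady state, and over all genes 317 in WT and 19 between KO and WT in inflamed LECs (38). One fit over all 16 libraries gave 3 members at steady state, 1 in WT after OVA and 78 genes in inflamed LECs. Rescaling by the median ratio gave 2 genes in the interaction, and quantile normalization gave 1 there, 5 other serpins in WT and 2 in KO. Without the variance trend 1 gene passed in the interaction. The cause of these shifts was not tested.

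Leaving out 1 library at a time gave 4 to 7 members, 0 to 1 other serpins and 74 to 89 genes at steady state. It gave 2 to 4 members, 0 to 6 other serpins and 207 to 1052 genes in WT after OVA, 1 to 4 members, 1 to 3 other serpins and 1005 to 1240 genes in KO after OVA, 0 members and 9 to 78 genes between KO and WT in inflamed LECs, and 0 members and 0 to 6 genes in the interaction. The highest count in WT after OVA, in inflamed LECs and in the interaction came without WT inflamed replicate 2. Between same-numbered libraries, deviations from the group means correlated at -0.23 to 0.14. Such a correlation cannot exclude a batch shared by replicate number, and whether there was one was not tested. With a replicate block, 265 genes passed in WT after OVA, 20 in inflamed LECs, and 1 other serpin in WT and 2 in KO; the members called were 7 at steady state, 3 in WT, 4 in KO and 0 in inflamed LECs, Serpina3k being lost in WT and Serpina3m gained in KO. Depth is unknown, which leaves Serpina11 and Serpina12, near 1 TPM in WT, the least certain.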
